A study of Mus musculus with 6 samples.

Results

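The genes described here encode the 4 classic families of guidance cues and their receptors: semaphorins with plexins and neuropilins, ephrins with Eph receptors, Slits with Robo receptors, and netrins with UNC5 receptors. They were chosen by name, as every gene of the authors' gene-level table whose Entrez identifier maps to a mouse symbol beginning Sema, Plxn, Epha, Ephb, Efna, Efnb, Slit, Robo, Ntn or Unc5, together with Nrp1 and Nrp2. The Slitrk genes were left out. The rule takes 69 of the 19267 genes in that table. One of them, Unc50, matches by spelling only and encodes a protein of the Golgi and endoplasmic reticulum, so 68 genes are described, 37 ligands and 31 receptors. The wound cells were sorted from mouse wounds 7 days after injury for a high signal of a smooth muscle actin GFP reporter, and are labelled myofibroblast, the contractile stromal cell of healing tissue. The skin cells were sorted from dermis for a low signal of the same reporter and are labelled fibroblast-like. Both populations came from mice that carry this transgene and were negative for CD45, a white blood cell marker, and for CD31, an endothelial marker. Wounding and reporter level differ together between the groups and cannot be told apart, and the strain, age and sex of the mice and any pooling are not given in the sources used here.

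Guidance cues were first studied in growing axons, where they attract or repel the growth cone by changing its actin and its adhesion to the substrate. Semaphorins act through plexins, which work on small GTPases, and most secreted semaphorins also need a neuropilin. Ephrins and Eph receptors are both bound to membranes and can signal into both touching cells, Slits are secreted ligands of Robo receptors, and netrins attract through DCC and neogenin or repel through UNC5. The same molecules serve outside the nervous system in vessel patterning, in epithelia and in the movement and sorting of stromal cells.

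Each group had 3 one-colour Agilent arrays, with replicates 1 and 2 on array design 026655 and the array called replicate 3 on design 028005. A level is the log2 of the background-subtracted signal of the gene's brightest probe minus the 75th percentile of its array, so 0 marks that percentile and probes are compared only with themselves. Arrays of design 028005 read higher for most guidance genes in both groups, and the design was a term of the limma model from which every log2 difference, standard error (SE, on the log2 scale) and Benjamini-Hochberg adjusted p below comes. A pair is the wound array and the skin array with the same replicate number. Statements that the groups overlapped or did not describe the arrays of the gene named. The share of all genes without overlap was not counted. Between 64.4% and 71.1% of spots stood well above background on wound arrays and between 65.2% and 72.6% on skin arrays, and no array had a saturated spot (0 on each). Acta2, the smooth muscle actin gene behind the sort, had levels of 6.68, 6.36 and 7.90 in wound cells and 1.69, 1.88 and 3.25 in skin cells, a 26.1-fold higher level in wound cells (SE 0.16 on the log2 scale, adjusted p = 5.2e-05). All 8 mural and contractile cell markers rose. Of 7 fibroblast markers, 0 rose, 1 fell (Pdgfra) and 6 did not pass the test, and their summed linear level, as multiples of the 75th percentile, was 942 to 3133 in wound cells and 1099 to 3779 in skin cells. Nothing in the labels ties the arrays to different mice, and the spread that the p-values rest on may be technical.

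More ligands were called lower than higher in wound cells and more receptors higher than lower, but the ligand split narrowed under a stricter filter and the receptor split turned without 1 array. No test of a difference between ligands and receptors was made. Of 16748 genes tested, 34.0% were called at an adjusted p under 0.05, 18.5% higher and 15.6% lower in wound cells. Of the 36 ligands tested, 6 rose, 14 fell and 16 did not pass the test, and 3 of the 14 entered the test through skin cells alone. Of the 29 receptors tested, 8 rose, 5 fell and 16 did not pass. In a fit of the 15012 genes well above background on all 6 arrays, of which 33.6% were called, 19.0% higher and 14.6% lower, 8 of 33 ligands rose and 11 fell, and 7 of 28 receptors rose and 5 fell. Without wound replicate 2, 6 ligands rose and 15 fell, and 6 receptors rose and 7 fell. With a 2-fold minimum, which 10.2% of all genes passed upward and 10.0% downward, 5 ligands rose and 13 fell, and 5 receptors rose and 3 fell (20.2% of all genes in either direction). The median difference was -0.20 on the log2 scale for ligands and 0.03 for receptors, against 0.04 for all tested genes. Within design 026655 the ligand median was -0.46 and within design 028005 it was -0.22.

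A gene entered the test if, in wound cells, in skin cells or in both, its probe stood well above background in all 3 replicates. Of the 65 guidance genes that passed, 61 were well above background on all 6 arrays. The other 4 passed through 1 group and so had to differ: Ntn5, Sema4d and Sema3e through skin cells and Plxnc1 through wound cells. Ntng2 (2 wound arrays and 2 skin arrays well above background), Epha6 (1 and 0) and Plxnb3 (1 and 2) did not pass the filter. The calls lean on the array design term: without it, 12 ligands and 5 receptors were called, and 1764 of all genes in place of 5699. In bulk samples such as these, fewer cells of a type and less RNA per cell cannot be told apart.

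**Figure D1:**
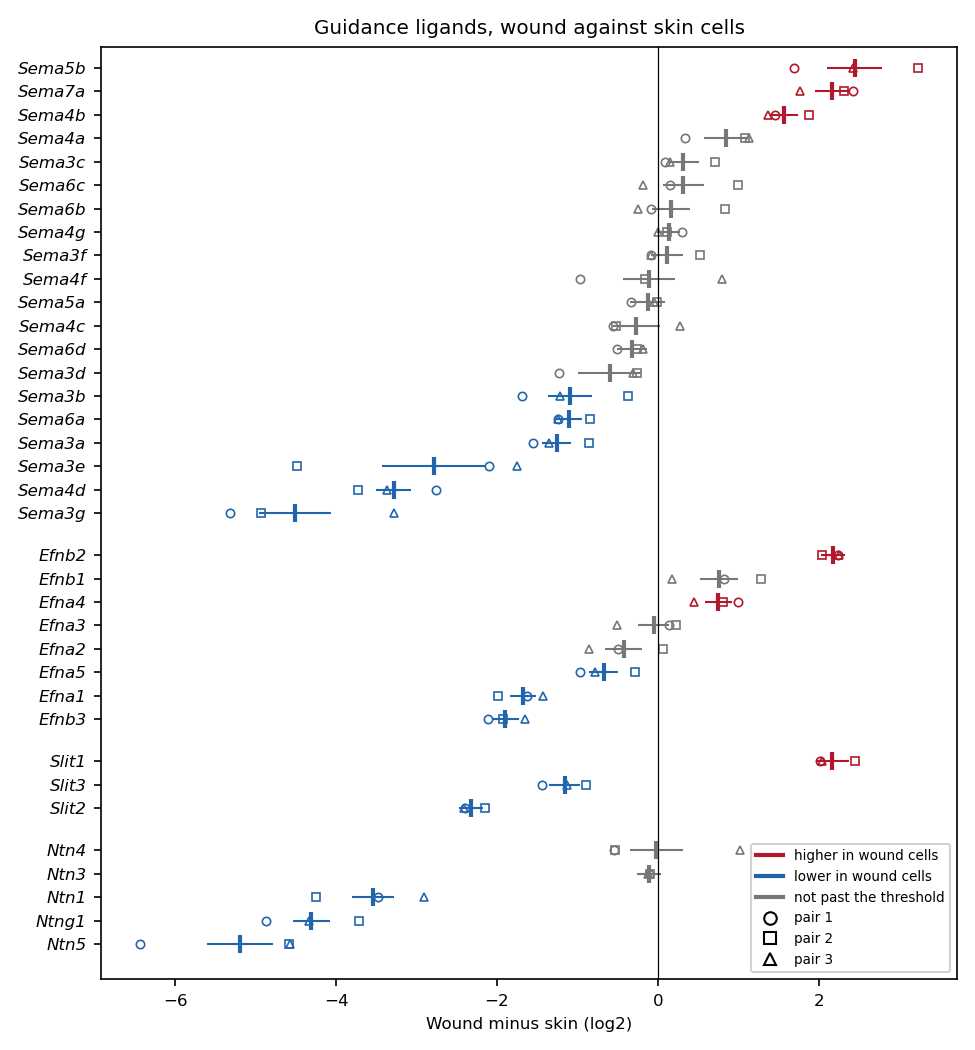
Differences of the 36 tested guidance ligands between wound and skin cells on the log2 scale (horizontal axis, wound minus skin), grouped by system. Vertical ticks are fitted differences with a bar of 1 SE, open symbols are the 3 differences between a wound array and the skin array of the same replicate number, and colours give the call. 14 ligands lie left of 0 as called lower in wound cells, down to Ntn5, and 6 lie to the right as called higher, up to Sema5b.

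Among the semaphorins, Sema7a, Sema5b and Sema4b rose and 6 of the 20 fell, among them 4 of the 7 secreted class 3 members. That is 15% higher and 30% lower, where 18.5% of all tested genes rose and 15.6% fell. Sema4d and Sema3e, counted among those that fell, entered the test through skin cells alone and so had to differ. Sema3g (Entrez 218877), a secreted class 3 semaphorin, had levels of -2.58, -1.65 and 0.56 in wound cells and 2.74, 3.29 and 3.84 in skin cells. The groups did not overlap, and the drop was smaller on design 028005 (-3.29) than in the pairs of design 026655 (-5.32 and -4.94). The fitted difference was -4.51, or 22.9-fold lower in wound cells (SE 0.45, adjusted p = 0.000703), and -3.42 by the mean of all probes. Sema4d, a membrane-bound ligand of plexin-B1, had levels of -5.08, -5.40 and -4.41 in wound cells, where its probe was well above background on 1 of 3 arrays, and -2.32, -1.67 and -1.04 in skin cells. The fitted drop was 9.76-fold (difference -3.29, SE 0.22, adjusted p = 0.000175), with wound values mostly not above background. Another background correction (normexp), followed by quantile normalization within each array design, gave -1.58. Sema3e, a secreted ligand that binds plexin-D1 without a neuropilin, had levels of -4.92, -7.37 and -3.38 in wound cells, with 2 of 3 arrays well above background, and -2.82, -2.88 and -1.63 in skin cells. One wound array lay far below the rest. The drop was 6.88-fold (SE 0.65, adjusted p = 0.0194), it was -2.78 on the log2 scale, -1.94 without wound replicate 2 and -1.02 with normexp, and its call was lost without skin replicate 1 (adjusted p = 0.0602) or skin replicate 2 (adjusted p = 0.0651).

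Sema7a (Entrez 20361), a semaphorin held by a lipid anchor that binds plexin-C1 and beta-1 integrins, had levels of 2.63, 2.95 and 3.52 in wound cells and 0.20, 0.64 and 1.75 in skin cells. Every wound array read above every skin array, and the rise was 4.50-fold (SE 0.22, adjusted p = 0.000708). Sema5b, a transmembrane semaphorin with thrombospondin repeats, had levels of -1.70, -1.50 and 0.29 in wound cells and -3.39, -4.74 and -2.15 in skin cells. It rose 5.47-fold (difference 2.45, SE 0.34, adjusted p = 0.00263), or by 1.55 on the log2 scale with normexp. Sema4b, another transmembrane member, had levels of -0.37, 0.06 and 0.65 in wound cells and -1.82, -1.83 and -0.72 in skin cells, a 2.96-fold rise (SE 0.18, adjusted p = 0.00112). The groups did not overlap for either gene.

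The other semaphorins that fell did so by less. Sema3a, the founding secreted repellent that binds neuropilin-1, had a difference of -1.26 (adjusted p = 0.00288). Sema6a, a transmembrane ligand of class A plexins, had -1.11 (adjusted p = 0.00344), and Sema3b had -1.09 (adjusted p = 0.0252). The Sema3b call was lost without wound replicate 1 (adjusted p = 0.0885), without skin replicate 1 (adjusted p = 0.0726) and without either array of design 028005 (adjusted p = 0.0873). Sema4a had 0.85 (adjusted p = 0.0562) and missed the threshold, which it passed with the replicate number as a block (adjusted p = 0.0356). The remaining 10 that did not pass were Sema3d (-0.60), Sema3c (0.32), Sema6d (-0.32), Sema6c (0.32), Sema4c (-0.27), Sema6b (0.17), Sema4g (0.14), Sema5a (-0.13), Sema3f (0.12) and Sema4f (-0.11).

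Of the 10 plexins and neuropilins tested, 4 rose and 1 fell, where 18.5% of all tested genes rose and 15.6% fell. Plxnc1, counted among those that rose, entered the test through wound cells alone and so had to differ. Plxnc1 (Entrez 54712), which encodes the plexin that binds Sema7a, had levels of -1.41, -1.10 and -0.33 in wound cells and -5.61, -5.59 and -4.26 in skin cells, where its probe was well above background on 1 of 3 arrays. The groups did not overlap, and the fitted rise was 18.4-fold (difference 4.20, SE 0.17, adjusted p = 6.69e-05), with skin values mostly not above background. With normexp the difference was 2.11. Plxnb1, which encodes the Sema4d receptor, had levels of -2.03, -1.60 and -0.63 in wound cells and -3.32, -3.20 and -2.64 in skin cells, a 3.10-fold rise (difference 1.63, SE 0.20, adjusted p = 0.00162) that was 0.93 with normexp. Sema7a and Plxnc1 thus both rose, while Sema4d fell and Plxnb1 rose.

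The remaining plexins that were called changed by less than 2-fold, and their groups overlapped across the array designs. Plxnb2, a receptor of class 4 semaphorins, had levels of 3.73, 4.04 and 5.21 in wound cells and 3.05, 2.92 and 4.27 in skin cells, 1.88-fold higher (SE 0.16, adjusted p = 0.00612). Plxna4 had levels of -2.08, -1.18 and -0.19 in wound cells and -2.55, -2.71 and -0.77 in skin cells, 1.81-fold higher (SE 0.26, adjusted p = 0.0483). Plxna3 had levels of -1.31, -1.07 and -0.24 in wound cells and -0.76, -0.73 and 0.39 in skin cells, 1.42-fold lower (SE 0.15, adjusted p = 0.0449). The wound array lay on the same side of its skin partner in all 3 pairs for each. The Plxna4 call was lost without wound replicate 2 (adjusted p = 0.0531), either array of design 028005 (0.0771), skin replicate 1 (0.123) or skin replicate 2 (0.139), and the Plxna3 call without any array but wound replicate 2, at adjusted p from 0.108 to 0.159. Both were also lost with the replicate number as a block (Plxna3 adjusted p = 0.0537, Plxna4 adjusted p = 0.0555).

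Neither neuropilin, the co-receptors of class 3 semaphorins, passed the test. Nrp1 had levels of -0.92, -0.81 and 0.96 in wound cells and -0.89, -0.71 and 0.75 in skin cells, a difference of 0.03 (SE 0.15, adjusted p = 0.909). Its sign turned under 3 other settings: it was -0.033 in the authors' deposited table, -0.045 with the percentile taken over detected probes and -0.005 with normexp. Nrp2 had a difference of -0.09, Plxnd1, which encodes the Sema3e receptor, 0.16, Plxna1 0.32 and Plxna2 -0.53, and none of them passed.

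The stretches before the starts of 4 of these genes are printed because they carry the contrast described here: Plxnc1 and Sema7a, a receptor and its ligand that both rose, and Sema3g and Slit2, secreted ligands that fell. Each is the 250 bases before the annotated start, from RefSeq on GRCm38.p6, 5′ to 3′ on the strand of the gene. Plxnc1 lies at chr10:94944846-94945095 on the minus strand, Sema7a at chr9:57939862-57940111, Sema3g at chr14:31217623-31217872 and Slit2 at chr5:47982905-47983154 on the plus strand. Capitals mark GC boxes (GGGCGG) and E-boxes (CANNTG), searched on both strands.
Plxnc1: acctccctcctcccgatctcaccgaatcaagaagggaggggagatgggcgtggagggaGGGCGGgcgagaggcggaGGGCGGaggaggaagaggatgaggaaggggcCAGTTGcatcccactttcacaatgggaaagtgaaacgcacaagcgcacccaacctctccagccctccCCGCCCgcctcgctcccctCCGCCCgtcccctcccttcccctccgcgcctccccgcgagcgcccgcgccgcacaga
Sema7a: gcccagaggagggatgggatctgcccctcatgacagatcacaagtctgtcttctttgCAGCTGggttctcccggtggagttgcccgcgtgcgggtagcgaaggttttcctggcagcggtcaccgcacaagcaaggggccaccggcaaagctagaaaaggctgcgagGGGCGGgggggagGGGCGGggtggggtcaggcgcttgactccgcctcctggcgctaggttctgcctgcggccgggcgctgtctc
Sema3g: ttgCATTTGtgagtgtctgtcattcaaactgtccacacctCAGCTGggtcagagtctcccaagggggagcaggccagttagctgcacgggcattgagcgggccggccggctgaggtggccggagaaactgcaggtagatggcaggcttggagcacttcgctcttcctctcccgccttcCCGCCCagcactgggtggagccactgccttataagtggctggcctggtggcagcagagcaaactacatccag
Slit2: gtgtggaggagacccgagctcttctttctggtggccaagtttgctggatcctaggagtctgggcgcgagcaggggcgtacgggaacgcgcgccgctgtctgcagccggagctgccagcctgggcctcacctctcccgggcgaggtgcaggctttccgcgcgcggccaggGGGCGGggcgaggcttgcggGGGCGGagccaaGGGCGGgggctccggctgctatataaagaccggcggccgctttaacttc
Plxnc1 holds 4 GC boxes and 1 E-box, Sema7a 2 and 1, Sema3g 1 and 2, and Slit2 3 and 0, and 60.4% to 69.6% of their bases are G or C. Of 32851 promoters of this length, 32.7% hold a GC box and 66.2% an E-box. Among 61 genes of the rule with a listed promoter, 45 hold a GC box and 32 an E-box, by any of their promoters, against 35.4% and 69.3% of all genes. Unc50 was not left out of these motif counts. A GC box was found in 9 of 13 genes that rose, 10 of 15 that fell and 25 of 30 that did not pass. The AP-1 letters TGANTCA were in 3 of the 61 (7.82% of all genes) and the TEAD letters GGAATG in 9 (14.4%). These are matches of letters and not shown to be bound.

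Of the 8 ephrins, 2 rose and 3 fell, with the transmembrane ephrin-B ligands on both sides. Of all tested genes, 18.5% rose and 15.6% fell. Efnb2 (Entrez 13642), the ligand of EphB4 that marks arterial endothelium, had levels of 1.82, 1.88 and 2.89 in wound cells and -0.42, -0.16 and 0.63 in skin cells. No skin array reached a wound array, and the rise was 4.53-fold (difference 2.18, SE 0.15, adjusted p = 0.000208), or 1.55 on the log2 scale by the mean of all probes. Efnb3 had levels of -2.48, -2.17 and -1.29 in wound cells and -0.37, -0.24 and 0.37 in skin cells, 3.72-fold lower in wound cells (SE 0.17, adjusted p = 0.000486). Efna4, a lipid-anchored ligand, had levels of -1.90, -2.16 and -0.59 in wound cells and -2.90, -2.97 and -1.04 in skin cells. These overlapped across designs but not within them, and the fitted rise was 1.69-fold (SE 0.17, adjusted p = 0.018), lost without wound replicate 1 (adjusted p = 0.059), skin replicate 1 (0.0781) or skin replicate 2 (0.0639). Efna1, whose product binds EphA2, had a difference of -1.68 (adjusted p = 0.000657), and Efna5 had -0.67 (adjusted p = 0.0322), which was lost without wound replicate 1 (0.100), skin replicate 1 (0.124), skin replicate 2 (0.0574) or either array of design 028005 (0.113). Efnb1 (0.76, adjusted p = 0.0518), Efna2 (-0.43) and Efna3 (-0.05) did not pass.

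Most Eph receptor genes did not differ past the threshold: 1 of 13 rose and 2 fell. That is 7.69% and 15.4%, where 18.5% of all tested genes rose and 15.6% fell. Epha3 had levels of 0.24, 0.84 and 1.60 in wound cells and -0.87, -0.77 and -0.02 in skin cells, a 2.72-fold rise (SE 0.20, adjusted p = 0.00265) with no overlap. Ephb6, whose product lacks kinase activity, had levels of -0.48, -0.31 and 1.24 in wound cells and 2.03, 2.08 and 3.44 in skin cells. It was 5.16-fold lower (SE 0.15, adjusted p = 0.00015) by its brightest probe, and the authors' deposited table gave -1.75 (adjusted p = 0.00307). The mean of all its probes gave -0.77 (adjusted p = 0.234). In that mean, wound replicate 3 rests on the bright probe alone, because the dim second probe had no value there. The skin arrays average the bright and the dim probe, so -0.77 is not a comparison of like with like. Ephb1 had levels of -5.64, -4.95 and -3.68 in wound cells and -4.11, -3.69 and -1.74 in skin cells, which overlapped across designs, and was 2.99-fold lower (difference -1.58, SE 0.25, adjusted p = 0.00454), or -0.61 on the log2 scale with normexp. Ephb4, which encodes the main receptor of ephrin-B2, had a difference of -0.19 and did not pass while Efnb2 rose. The others that did not pass were Epha1 (0.75), Epha7 (-0.71, adjusted p = 0.125, which passed with the replicate number as a block at 0.0481), Epha8 (-0.62), Ephb2 (0.34), Epha5 (-0.32), Epha2 (0.32), Ephb3 (-0.25), Epha4 (-0.17) and Epha10 (-0.11).

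**Figure D2:**
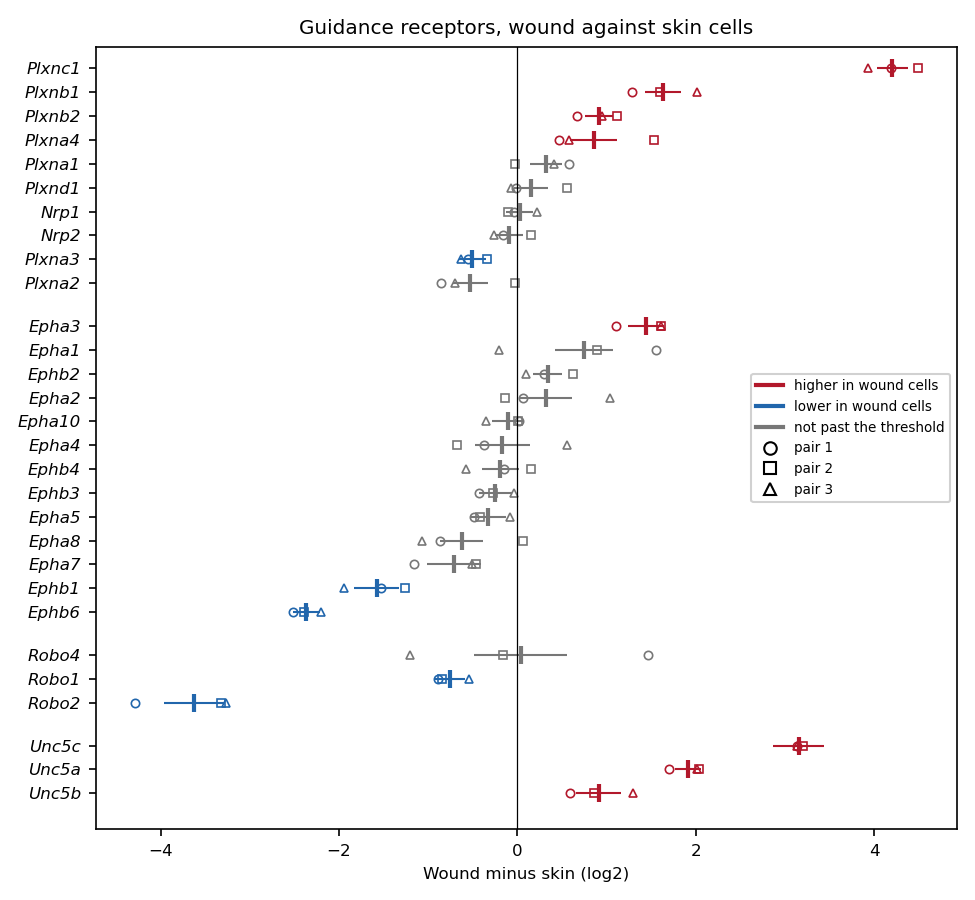
Differences of the 29 tested guidance receptors between wound and skin cells on the log2 scale (horizontal axis, wound minus skin), grouped by system, with fitted values, bars of 1 SE and the 3 differences between arrays of the same replicate number. Plxnc1 and the 3 Unc5 genes lie to the right of 0, Robo1 and Robo2 to the left, and 13 receptors carry a call.

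Of the 3 Slit genes, 2 fell and 1 rose, where 15.6% of all tested genes fell and 18.5% rose. Slit2 (Entrez 20563), a secreted repellent, had levels of 0.46, 0.75 and 1.68 in wound cells and 2.86, 2.91 and 4.09 in skin cells. The groups did not overlap, and Slit2 was 5.00-fold lower in wound cells (SE 0.15, adjusted p = 0.000175). Slit3 had a difference of -1.16 (adjusted p = 0.00541). Slit1 read low on all arrays, at -2.69, -2.07 and -1.30 in wound cells and -4.70, -4.52 and -3.34 in skin cells, and rose 4.49-fold (difference 2.17, SE 0.20, adjusted p = 0.000572), or by 1.23 on the log2 scale with normexp.

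Of the 3 Robo genes, 2 fell, where 15.6% of all tested genes fell. Robo2 (Entrez 268902), a Slit receptor, had levels of -1.79, -0.56 and 0.17 in wound cells and 2.50, 2.76 and 3.44 in skin cells, 12.4-fold lower in wound cells (SE 0.34, adjusted p = 0.000539). Robo1, the other main Slit receptor, had levels of 0.40, 0.66 and 1.69 in wound cells and 1.29, 1.50 and 2.23 in skin cells. Its groups overlapped across designs, the drop was 1.69-fold (difference -0.76, SE 0.17, adjusted p = 0.0156) and -2.01 on the log2 scale by the mean of all probes, and the call was lost without wound replicate 1 (adjusted p = 0.0541), skin replicate 1 (0.0587) or skin replicate 2 (0.0554). Robo4, known from endothelial cells, varied most among the receptors that did not pass, with levels of -3.69, -3.78 and -2.89 in wound cells and -5.16, -3.62 and -1.69 in skin cells, a difference of 0.04 with an SE of 0.52 whose sign turned under several settings. Slit2, Slit3, Robo1 and Robo2 were thus all lower in wound cells.

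Of the 5 netrins tested, 3 fell, each by 11.7-fold or more by their brightest probes, and 0 rose. Of all tested genes, 15.6% fell and 18.5% rose. Ntn5, counted among the netrins that fell, entered the test through skin cells alone and so had to differ. The Ntn5 probe (Entrez 243967) was not well above background on any wound array (measured values -8.19, -6.79 and -5.82) and had levels of -1.74, -2.21 and -1.25 in skin cells, so Ntn5 was at least 27.9-fold lower in wound cells (adjusted p = 0.000306). That bound does not hold with normexp, which adds an offset and is followed by quantile normalization, and which gave a difference of -1.80. Ntng1 (Entrez 80883), a lipid-anchored netrin-G that does not bind the classic netrin receptors, had levels of -4.56, -3.96 and -2.29 in wound cells and 0.31, -0.25 and 2.04 in skin cells. It was 19.8-fold lower in wound cells (difference -4.31, SE 0.23, adjusted p = 0.000112), or -3.12 on the log2 scale with normexp. Ntn1 (Entrez 18208), the founding netrin, had levels of -0.996, -1.40 and 0.73 in wound cells and 2.49, 2.85 and 3.64 in skin cells, 11.7-fold lower in wound cells (SE 0.26, adjusted p = 0.000251). None of the 3 overlapped between groups, which was not counted over all genes. Ntn3 (-0.11) and Ntn4 (-0.02), a netrin of basement membranes, did not pass.

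All 3 UNC5 receptors tested rose, where 18.5% of all tested genes rose. Unc5c (Entrez 22253) had levels of -0.999, -0.20 and 0.30 in wound cells and -4.14, -3.40 and -2.84 in skin cells, 8.93-fold higher in wound cells (difference 3.16, SE 0.29, adjusted p = 0.000497), or 2.12 on the log2 scale with normexp. Unc5a had levels of 0.10, 0.21 and 1.56 in wound cells and -1.59, -1.83 and -0.45 in skin cells, 3.77-fold higher (SE 0.15, adjusted p = 0.000314). Neither overlapped between groups. Unc5b had levels of 2.10, 2.79 and 3.63 in wound cells and 1.51, 1.93 and 2.33 in skin cells, which overlapped, and was 1.88-fold higher (SE 0.25, adjusted p = 0.0353). Its call was lost without wound replicate 2 (adjusted p = 0.101), skin replicate 1 (0.115) or either array of design 028005 (0.138), and narrowly with normexp (0.0598) or another percentile (0.0615). Ntn1 thus fell while the genes of its repellent receptors rose. Of its other receptor genes, Neo1 (neogenin) rose by 0.87 on the log2 scale (adjusted p = 0.0064). Dcc had -0.19 (SE 0.56, adjusted p = 0.822), with pair differences of -0.38, 1.56 and -1.75, so no direction can be read from its probe.

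**Figure D3:**
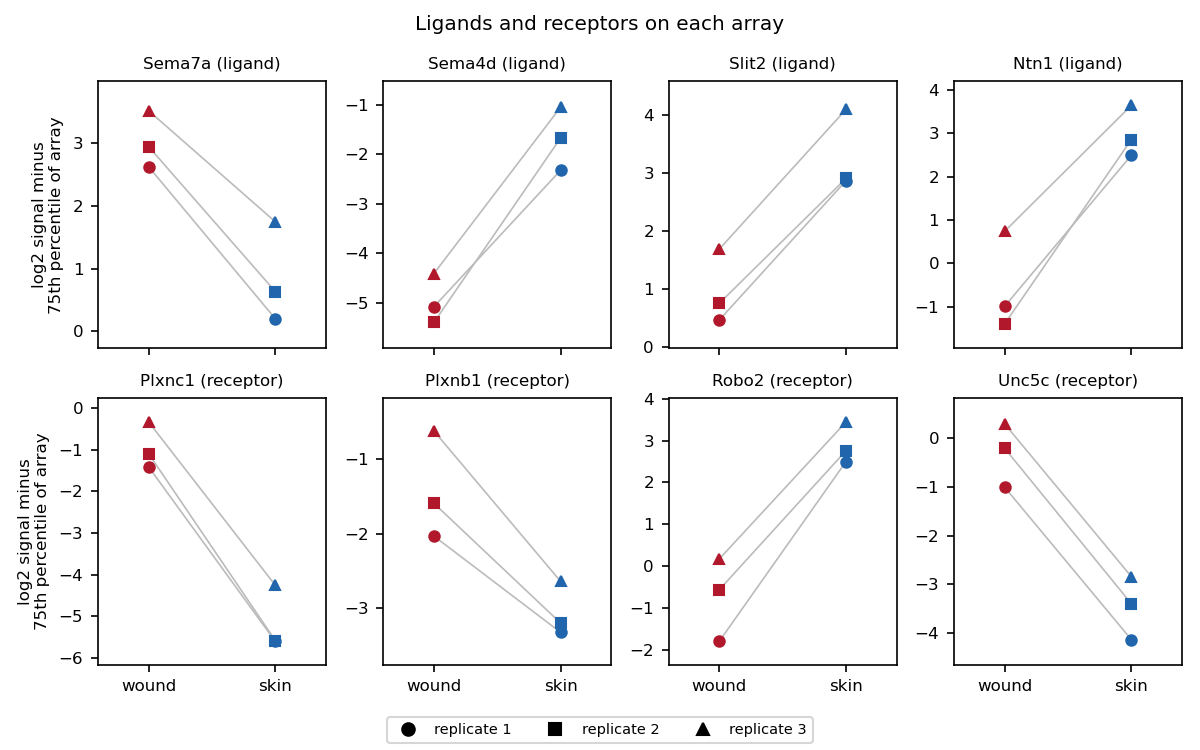
Levels of 4 ligands (top) and 4 receptors (bottom) on each of the 6 arrays, as log2 signal minus the 75th percentile of the array, with wound arrays left and skin arrays right and lines joining arrays of the same replicate number. Vertical scales differ between panels. Sema7a, Plxnc1, Plxnb1 and Unc5c were higher on every wound array than on any skin array, and Sema4d, Slit2, Ntn1 and Robo2 were lower.

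Different probes of a gene did not always agree. The guidance genes and Unc50 had 99 probes, 44 genes had 1 probe each, and 21 had more than 1 probe past the detection filter. Among these 21, the probes differed by under 0.5 on the log2 scale for 11 genes and by over 1 for 8, and for 2 they differed in sign. Those were Epha5 and Sema6d. For Sema6d the brighter probe gave -0.32, while a second probe had levels of -3.38, -2.91 and -1.84 in wound cells and -4.25, -4.78 and -3.59 in skin cells, a difference of 1.50 (adjusted p = 0.0035 in a limma fit over probes). For Epha5 the brighter probe gave -0.32, and a dim second probe was well above background on all 3 wound arrays (-5.86, -3.44 and -3.45) and on 0 skin arrays.

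Other genes kept their direction but not their size from probe to probe. A second Robo1 probe was well above background on 0 wound arrays and on all 3 skin arrays (-4.16, -3.45 and -2.92), whereas the brighter Robo1 probe differed by -0.76. A second Ephb6 probe gave -0.41 (adjusted p = 0.617), fitted on 5 arrays because its value on wound replicate 3 was missing, against -2.37 by the brighter probe. Sema5b gave 1.80 and 4.79 by its other probes against 2.45, and Efnb2 0.92 (adjusted p = 0.0117) against 2.18. A second Sema3g probe gave -2.33 (adjusted p = 0.0443), with pair differences of -3.52, -3.53 and 0.07, so the drop was not seen by that probe on design 028005. Other probes of Plxnc1 (3.29), Unc5c (3.01), Ntn1 (-3.12), Ntng1 (-3.27 and -4.42) and Robo2 (-3.44 and -3.50) gave differences of the same sign as those of the probes used. These probe-level fits were chosen after seeing the data.

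**Figure D4:**
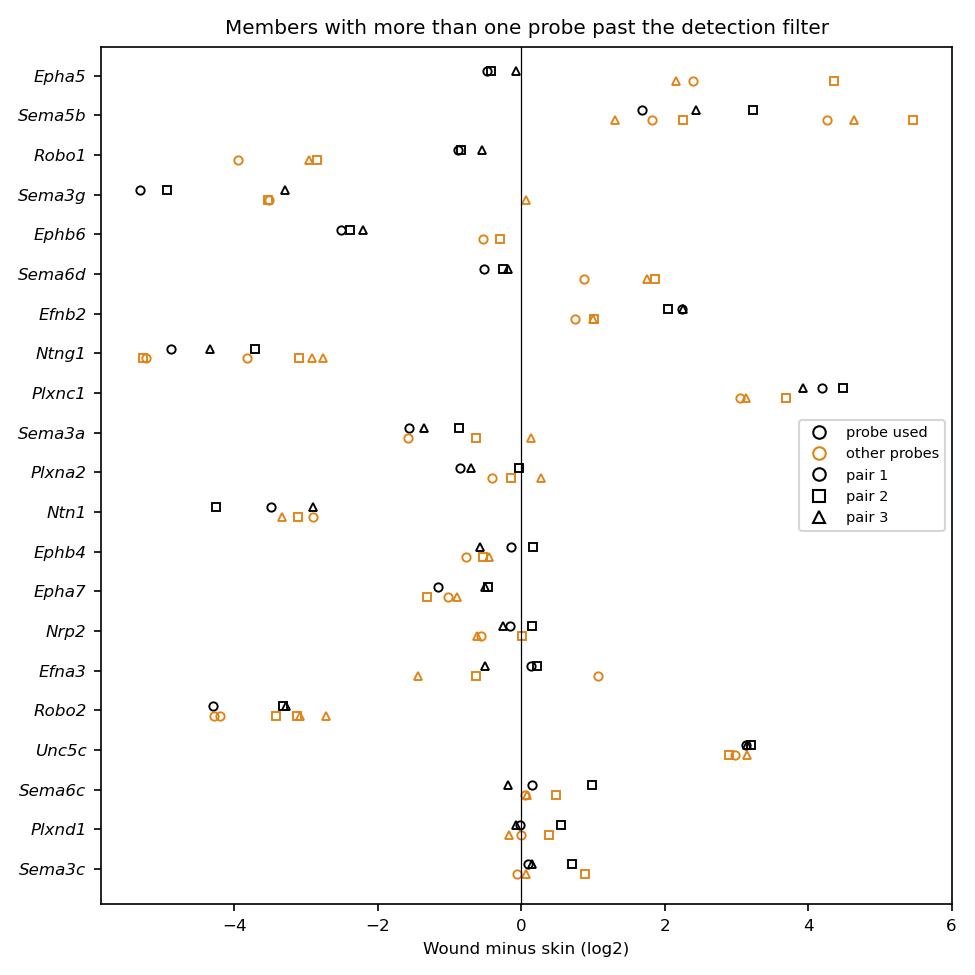
Wound minus skin differences on the log2 scale (horizontal axis) for each passing probe of the 21 genes with more than 1 probe past the detection filter. Black symbols are the probe used, orange symbols the others, and shapes the replicate number; the second Ephb6 probe has 2 symbols, since 1 wound value is missing. Epha5 and Sema6d have probes on both sides of 0, while all probes of Plxnc1, Ntn1, Ntng1, Robo2 and Unc5c lie on 1 side.

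Further genes of these pathways were counted in the same fit, from 2 lists. Of 20 tested co-receptors and other partner genes, 7 rose, 6 fell and 7 did not pass (median 0.13), where 18.5% of all tested genes rose and 15.6% fell (median 0.04). The largest increases were Itga1, an integrin that pairs with beta-1 integrin (3.30, 9.82-fold, adjusted p = 0.000121), Gpc1, a glypican that binds Slit2 (3.24, 9.43-fold, adjusted p = 0.000153), Draxin, a DCC ligand whose probe was well above background on 2 of 3 skin arrays (1.84, adjusted p = 0.0268), and Itgb1 (1.16, adjusted p = 0.00401). The largest decreases were Plxdc1 (-1.60) and the 3 FLRT genes, whose products bind Unc5 receptors, Flrt2 (-1.44), Flrt1 (-1.34) and Flrt3 (-1.004). The integrin genes rose together with Sema7a, and all 3 FLRT genes fell while the Unc5 genes rose.

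Of 43 tested intracellular effectors, 17 rose, 5 fell and 21 did not pass (median 0.57), against the same 18.5% and 15.6% of all genes. The largest increases were Rnd1, a GTPase that binds plexins (3.42, 10.7-fold, adjusted p = 0.000122), Enah (3.23, 9.40-fold, adjusted p = 9.6e-05) and Vasp (1.65, adjusted p = 0.00129), which act on actin filament ends, and Chn2, a Rac GTPase-activating protein (1.89, adjusted p = 0.00175). The largest decreases were Dpysl4, a collapsin response mediator (-2.37, adjusted p = 0.000174), Arhgap39, a relative of the Robo-binding Vilse protein of flies (-0.80, adjusted p = 0.00833), Srgap3, a Slit-Robo GTPase-activating protein (-0.71, adjusted p = 0.0146), and the kinase gene Fyn (-0.70, adjusted p = 0.0248). Many of these genes have roles outside guidance.

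Markers of other cell types moved with some of these changes. Of 9 keratinocyte markers, 8 fell and 0 rose (median -4.33), and their summed level was 4.24 to 10.4 in wound cells and 21.5 to 51.8 in skin cells. Of 6 tested Schwann cell markers, 4 fell and 0 rose, with sums of 0.81 to 1.88 in wound cells and 1.44 to 4.52 in skin cells. Both lists thus moved in the direction of the ligands that fell, and their part in those changes was not tested. Of 9 tested endothelial markers, 4 rose, 0 fell and 5 did not pass (sums 8.71 to 22.0 in wound cells and 4.27 to 18.0 in skin cells). Those that rose were Esam (12.7-fold), Emcn (5.99-fold, well above background on 1 of 3 skin arrays), Egfl7 (3.21-fold) and Tek (2.12-fold). Pecam1, the gene of CD31, differed by 0.37 (adjusted p = 0.153), and Tie1 and Erg were well above background on 0 wound arrays and 1 skin array. Of 9 tested leukocyte markers, 0 rose and 1 fell (sums 23.2 to 104 in wound cells and 23.5 to 119 in skin cells). Among them the Itgam probe read high, at log2 levels of 4.23, 4.84 and 6.52 in wound cells and 4.20, 4.18 and 6.64 in skin cells. Of 3 tested melanocyte markers, 0 rose and 1 fell. Across all tested genes, 18.5% rose and 15.6% fell. The mural markers, with sums of 66.8 to 172 in wound cells and 4.44 to 9.94 in skin cells, rose with Plxnc1, Sema7a, Efnb2 and the Unc5 genes, and their part was not tested either.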

How the data were processed

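RNA of 3 wound and 3 skin samples was measured on one-colour arrays. Per the file headers, the authors extracted spot intensity values with Agilent Feature Extraction 10.7.3.1, on genome build mm9; the deposited intensity column used is background-subtracted and not scaled between arrays. The authors' deposited table holds log2 values per gene that GeneSpring 14.5 joined across the designs, per the design text of the series. Its log2 scale and direction were taken from differences between arrays, which followed the scanner values with slopes of 1.00, 1.00 and 0.975 over 16554 genes. Its column medians were -0.28, -0.27 and -0.23 for wound and -0.21, -0.25 and -0.25 for skin replicates 1, 2 and 3. Its way of combining probes is not given in the sources read. RNA of about 50 ng was amplified, per the same text, which names a human array; the probes matched mouse genes.

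Probes were named through the identifiers of the authors' table or by unversioned accession in a name table of assembly GRCm38.p6 (30621 of 39429 probes on design 026655 and 30647 of 55681 on 028005). Control and outlier spots were left out, and spots of a probe were averaged. Signals were put on the log2 scale and the array's 75th percentile subtracted. The brightest probe by mean stood for a gene, and 97.0% of genes had 1 such probe for the 2 designs. From 23044 genes present on each design, 16748 were tested with limma 3.58.1 in R 4.3.3 (lmFit, eBayes; 3 residual degrees of freedom, 6.25 moderated), wound minus skin, with the array design as a term, which also stands for slide and scan. A gene was called if its p, adjusted by Benjamini and Hochberg over all tested genes, was under 0.05. Correlations across genes were 0.970 to 0.989 within groups and 0.901 to 0.923 between them; the number of arrays limits the precision. A bound written as at least N-fold sets the brighter mean against, per array, whichever is higher, the dim probe or the weakest signal well above background. The fit was also run on simulated arrays with independent noise, which checks the code and not the spread between the arrays used here. Python 3.11.15, pandas 2.3.3 and matplotlib 3.10.9 served for tables and figures.

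The members and lists were chosen with earlier results of these data known. Per-array values are given for the 8 largest increases and decreases called among ligands and among receptors and the largest change of each system and role, and the 4 largest of each direction from the pathway lists. Alternatives were other background correction (normexp with an offset of 50, on median signals, since the files have no mean signal), scaling, probe rules, filters, thresholds, the replicate block, no design term, 1 design only, the authors' table and leaving out each array. Deviations of same-numbered arrays from their group means correlated at 0.337, 0.187 and 0.367 for replicates 1, 2 and 3. These values include the shift between array designs, which both groups share, so they cannot show that the numbers pair the arrays. Within design 026655 the replicate differences correlated at 0.153. The numbers were used as pairs only to describe differences and in the replicate block, and the main fit did not use them. The labels number only the pairs of design 026655, and the third pair comes from the shared design. Unc5d, Robo3 and Unc5cl are not in the authors' table and were not analysed here.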

Additional observations from a re-analysis of the deposited data

How the results depend on the processing

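Of the 34 called genes of the rule, Unc50 included (0.61, adjusted p = 0.0212), 12 kept their call under all 16 alternatives that refit the genes: Efnb2, Efnb3, Ntn1, Ntng1, Robo2, Sema3g, Sema5b, Sema7a, Slit1, Slit2, Unc5a and Unc5c. Ntn5, Plxnc1 and Sema4d kept it under the 15 that gave them a value, since they were not well above background on all 6 arrays. These genes entered the test through 1 group and so had to differ, and their kept calls add no separate support. Another 9 lost it only without the array design term, 9 under more than 1 alternative, and Ephb6 with the mean of all probes. For Ephb6 that mean lacks the dim probe on wound replicate 3. Without the array design term the calls came to 12 ligands, 5 receptors, 7 partner and effector genes and 1764 of all genes, in place of 20, 13, 35 and 5699; the cause was not tested. At an adjusted p under 0.01, 3195 of all genes and 22 partner and effector genes were called. With no detection filter, 4340 of 23044 genes were called. Under that setting 6 ligands rose and 11 fell, and 6 receptors rose and 4 fell. Of the called genes, 7 lost their call there: Efna5, Plxna3, Plxna4, Sema3b, Sema3e, Unc50 and Unc5b. Leaving out 1 array gave 3759 to 5026 calls of all genes, the fewest without skin replicate 1, with 16 to 21 ligands, 9 to 13 receptors and 25 to 31 partner and effector genes. With the replicate block, 21 ligands, 12 receptors and 5607 of all genes were called; Sema4a and Epha7 gained a call, Plxna3 and Plxna4 lost theirs, and no other guidance gene changed its call.

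Normexp gave smaller differences for the dim genes named with it above. No called gene turned its sign. Signs turned, with the cause not tested, only for genes that were not called. With design 026655 only, they were Efna3 0.177, Epha10 0.011, Epha2 -0.033, Ephb4 0.005 and Nrp1 -0.068. The mean of all probes gave Epha10 0.10, Epha5 0.80 and Sema6d 0.59, the authors' deposited table Epha5 0.77, Sema6d 0.53, Nrp1 -0.033 and Robo4 -0.024, and another probe Epha5 2.98 and Sema6d 1.50. The percentile over detected probes gave Nrp1 -0.045 and Robo4 -0.036. Normexp gave Nrp1 -0.005, Robo4 -0.051, Sema4f 0.008 and Sema4g -0.005. Leaving out 1 array at a time gave -0.140 to 0.177 for Efna3, -0.217 to 0.011 for Epha10, -0.033 to 0.594 for Epha2, -0.528 to 0.137 for Epha4, -0.375 to 0.005 for Ephb4, -0.068 to 0.104 for Nrp1, -0.540 to 0.190 for Ntn4, -0.026 to 0.273 for Plxnd1, -0.581 to 0.653 for Robo4, -0.072 to 0.248 for Sema3f, -0.567 to 0.158 for Sema4f, -0.300 to 0.069 for Sema5a and -0.072 to 0.375 for Sema6b.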
